A study of Mus musculus with 6 samples.

Results

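The genes described here encode the machinery that loads peptides onto MHC class I in the endoplasmic reticulum, together with the regulator of its transcription. They were B2m, Tap1, Tap2, Tapbp, Tapbpl, Erap1, Calr, Canx, Pdia3 and Nlrc5, taken by gene symbol, and all 10 were found among the 54532 genes of the expression table. Expression was measured by RNA-seq in 6 libraries of mouse vascular smooth muscle cells, 3 per group, and each value is an FPKM (fragments counted in a gene, scaled by gene length and library size). In the first group (Ad-Con, genotype WT) the cells received an adenoviral vector with a control plasmid. In the second (Ad-PDK4) the vector carried a plasmid for overexpression of pyruvate dehydrogenase kinase 4, a mitochondrial kinase that restrains entry of pyruvate into oxidation. According to the study's text, the cells of both groups were cultured mouse aortic smooth muscle cells that were afterwards given angiotensin II, a treatment the sample labels do not mention, so no library without the agent or without virus was compared.

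MHC class I molecules display fragments of intracellular proteins to CD8+ T cells. Proteasomes and cytosolic peptidases cut the proteins, the TAP transporter (TAP1 with TAP2) carries the peptides into the endoplasmic reticulum, and ERAP1 trims them there. The heavy chain first folds with calnexin, pairs with beta-2-microglobulin, and then joins calreticulin, ERp57 (the product of Pdia3) and tapasin (Tapbp) beside TAP, while TAPBPR (Tapbpl) edits peptides outside that complex. Interferons raise much of this set through transcription factors such as IRF1, and NLRC5 drives transcription of class I genes from an enhanceosome of RFX, CREB and NF-Y proteins.

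Reads assigned to genes, recovered from FPKM and gene length, came to 17588942 to 21861872 per library. Mouse Pdk4 was 9.50, 10.4 and 10.1 FPKM in the Ad-Con libraries and 7.67, 7.40 and 7.38 FPKM in the Ad-PDK4 libraries. It was lower in each library carrying the overexpression label, so the groups are named below by their labels alone. Of the smooth muscle markers, Acta2 was 76.9 to 78.7 FPKM in Ad-Con and 33.5 to 38.0 in Ad-PDK4, but Myh11 had at most 10 reads and Myocd at most 5 in any library, and Smtn did not pass the test (log2 fold change 0.02, limma adjusted p = 0.839). Tagln had at most 20 reads, Cnn1 at most 30 and Des at most 16 in any library. Lmod1 did not pass either (log2 fold change -0.29, limma adjusted p = 0.357). The summed level of 8 such markers, nearly all of it Acta2, was 87.0 to 88.7 FPKM in Ad-Con and 43.2 to 48.0 in Ad-PDK4. The fibroblast marker Pdgfra was 19.0 to 21.3 FPKM over all 6 libraries. The summed level of 6 fibroblast markers was 1430 to 1555 FPKM in Ad-Con and 738 to 805 in Ad-PDK4, most of it Col1a1. Of the 6, Dpt, Col1a1, Lum and Col3a1 fell, Pdgfra did not pass, and Dcn rose (log2 fold change 0.83, limma adjusted p = 0.000404).

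Promoter sequence was available for 7 of the 10 genes, and 5 of the 7 windows are shown: B2m and Erap1 for their interferon element, Tap1 for the window it shares in part with Psmb9, and Calr and Canx for their stress response element. Each window, from RefSeq on GRCm38.p6, runs 5′ to 3′ from 250 bases before to 50 after the transcription start, and capitals mark matches to any of 6 motifs searched on both strands. The motifs were the interferon-stimulated response element (ISRE, GAAANNGAAA), the gamma-activated site (GAS, TTCNNNGAA), an NF-kB site (GGGNNTTTCC), the CRE core (TGACG), the CCAAT box (CCAAT) and the endoplasmic reticulum stress response element (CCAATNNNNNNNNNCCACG), whose first 5 letters are themselves a CCAAT box.
B2m (chr2:122147437-122147736, plus strand): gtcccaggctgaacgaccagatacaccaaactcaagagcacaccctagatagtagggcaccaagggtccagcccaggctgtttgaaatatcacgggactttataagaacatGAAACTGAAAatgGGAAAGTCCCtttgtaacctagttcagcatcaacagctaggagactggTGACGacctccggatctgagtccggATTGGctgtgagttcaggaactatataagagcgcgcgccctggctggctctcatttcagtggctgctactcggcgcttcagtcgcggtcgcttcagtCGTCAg
Erap1 (chr13:74639603-74639902, plus strand): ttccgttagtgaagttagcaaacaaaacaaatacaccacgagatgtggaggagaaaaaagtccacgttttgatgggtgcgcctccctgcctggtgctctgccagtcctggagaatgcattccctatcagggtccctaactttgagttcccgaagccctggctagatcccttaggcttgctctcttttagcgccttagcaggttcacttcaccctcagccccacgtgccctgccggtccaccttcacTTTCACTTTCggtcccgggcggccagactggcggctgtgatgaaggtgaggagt
Tap1 (chr17:34187306-34187605, plus strand): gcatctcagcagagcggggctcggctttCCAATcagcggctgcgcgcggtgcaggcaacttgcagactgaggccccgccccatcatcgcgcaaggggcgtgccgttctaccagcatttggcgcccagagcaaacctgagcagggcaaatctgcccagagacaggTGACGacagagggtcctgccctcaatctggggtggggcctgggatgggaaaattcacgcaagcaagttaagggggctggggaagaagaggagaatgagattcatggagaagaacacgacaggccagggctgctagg
Calr (chr8:84846882-84847181, minus strand): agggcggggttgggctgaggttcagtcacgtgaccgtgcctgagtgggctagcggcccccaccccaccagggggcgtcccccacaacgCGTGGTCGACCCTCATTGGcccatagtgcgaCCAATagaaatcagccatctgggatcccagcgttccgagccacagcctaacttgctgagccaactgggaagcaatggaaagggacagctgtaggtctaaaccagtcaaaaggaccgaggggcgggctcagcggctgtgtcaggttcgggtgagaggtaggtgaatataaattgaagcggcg
Canx (chr11:50325624-50325923, minus strand): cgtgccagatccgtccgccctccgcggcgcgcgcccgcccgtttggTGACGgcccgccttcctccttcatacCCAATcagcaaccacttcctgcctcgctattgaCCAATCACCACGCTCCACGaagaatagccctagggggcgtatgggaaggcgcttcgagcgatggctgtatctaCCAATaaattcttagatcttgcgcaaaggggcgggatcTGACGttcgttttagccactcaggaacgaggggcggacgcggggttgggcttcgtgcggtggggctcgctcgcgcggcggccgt
The ISRE letters were present in B2m, starting 139 bases before the start (GAAACTGAAA), and in Erap1, where the reverse-strand match (TTTCACTTTC) began 4 bases before the start and ran across it. B2m also held the NF-kB letters on the reverse strand from 126 bases before the start, a CRE core at 78 and a CCAAT box at 53. Among all 32544 promoter windows of this length, 3.45% held the ISRE and 1.61% the NF-kB letters. The stress response element was found in Calr and Canx, 2 of the 7 windows, against 0.12% of all windows. The CCAAT box was in 6 of the 7 (37.4% of all windows), and the CRE core was in B2m, Tap1, Canx and Pdia3 (20.9%). None of the 7 held the GAS letters (8.33% of all windows), which were present in Psmb8 97 bases before its start. These matches are letters in a window, and binding was not measured.

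Between the groups, the genes of peptide loading fell into those that rose and the general chaperones, which moved little. At an adjusted p below 0.05 (limma, Benjamini-Hochberg over the 13423 genes whose FPKM averaged 0.5 or more), 8 of the 10 were higher in Ad-PDK4, 0 were lower, and Canx and Pdia3 did not pass. Over all tested genes, 21.8% were higher and 20.8% were lower by the same rule. Of these, 5 also rose at least 2-fold, namely Nlrc5, B2m, Tap1, Erap1 and Tap2, against 3.95% of all tested genes. Nlrc5 reached the filter only through its Ad-PDK4 level, so a rise was bound to appear in it, and of the other 9 genes 7 were higher, 4 of them at least 2-fold, with a median log2 fold change of 0.83. The Ad-PDK4 libraries did not overlap the Ad-Con libraries in the same 8 genes, where 54.3% of all tested genes showed no overlap. The median log2 fold change was 0.99 for the 10 genes and -0.003 for all tested genes. In these bulk libraries a shift in the kinds of cells present and a shift in RNA per cell cannot be told apart.

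**Figure D1:**
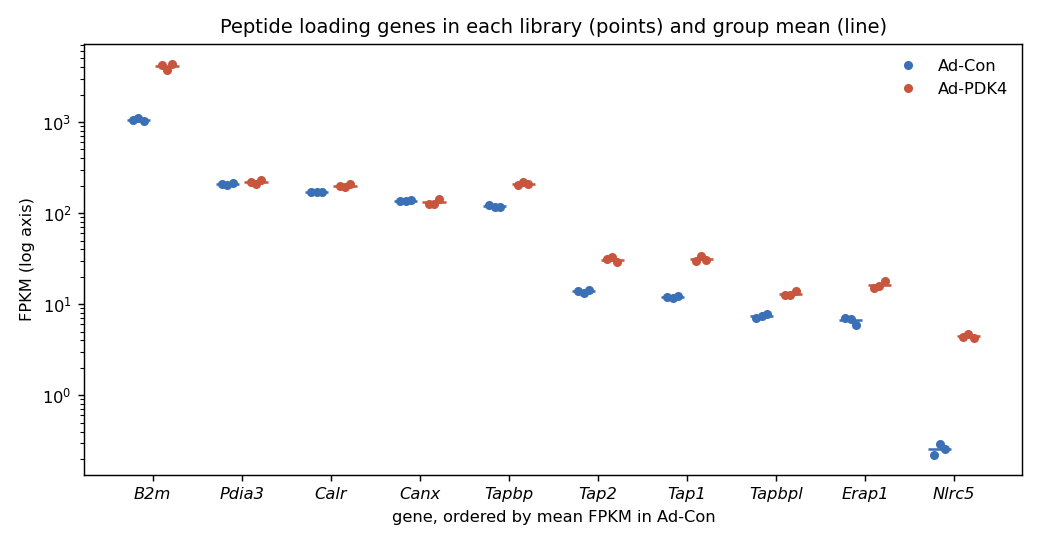
FPKM (log axis) of the 10 peptide loading genes in each of the 6 libraries (points) with the group mean (line), genes ordered by their Ad-Con mean. Points of the groups are apart for 8 genes and overlap for Canx and Pdia3, and B2m has the highest level in both groups.

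Nlrc5, the class I transactivator, was the least expressed member and rose the most. It was 0.220, 0.295 and 0.260 FPKM in Ad-Con and 4.41, 4.72 and 4.23 FPKM in Ad-PDK4. These levels stood on 38, 44 and 40 reads against 682, 702 and 794, so every Ad-PDK4 library lay far above every Ad-Con library, although counting error alone was 15.1 to 16.2% per Ad-Con library. The log2 fold change on log2(FPKM + 0.1), the scale of every fold change here, was 3.67 ± 0.15 (SE, limma adjusted p = 1.45e-06). The pseudocount of 0.1 shrinks the change of so low a gene, and the plain ratio of mean FPKM was 17.3. By size of rise it ranked 80 among the 13423 tested genes, and with a pseudocount of 1 its log2 fold change was 2.12. Since it passed the filter only through its Ad-PDK4 level, its p-value and rank describe the values and are no independent test of a rise.

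The transporter subunits rose together. Tap1, which with Tap2 forms the ATP-driven peptide pump, was 12.0, 11.7 and 12.3 FPKM in Ad-Con and 30.1, 33.7 and 30.5 FPKM in Ad-PDK4. Tap2 was 13.8, 13.3 and 14.3 FPKM in Ad-Con and 31.2, 32.7 and 29.0 FPKM in Ad-PDK4. Both were high in all Ad-PDK4 libraries with no overlap, and their spread within a group was small beside the gap, with SDs of 0.292 and 0.476 FPKM in Ad-Con and 1.98 and 1.87 in Ad-PDK4. The log2 fold change was 1.38 ± 0.06 for Tap1 (limma adjusted p = 1.84e-06) and 1.16 ± 0.06 for Tap2 (limma adjusted p = 5.63e-06).

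Tapasin and its relative TAPBPR rose by similar factors from very different levels. Tapbp, the bridge between TAP and the class I molecule, was 122.8, 115.6 and 116.6 FPKM in Ad-Con and 202.2, 220.1 and 209.1 FPKM in Ad-PDK4. Tapbpl was 7.14, 7.39 and 7.88 FPKM in Ad-Con and 12.5, 12.6 and 14.1 FPKM in Ad-PDK4. No Ad-PDK4 library reached down to an Ad-Con library for either gene. On the log2 scale the rise was 0.83 ± 0.05 for Tapbp (limma adjusted p = 1.21e-05) and 0.80 ± 0.07 for Tapbpl (limma adjusted p = 8.66e-05). Both stayed below the 2-fold line, with 95% intervals of 1.64 to 1.93-fold for Tapbp and 1.55 to 1.95-fold for Tapbpl.

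Erap1, the trimming aminopeptidase, was 7.06, 6.88 and 5.98 FPKM in Ad-Con and 15.2, 15.7 and 17.8 FPKM in Ad-PDK4. All Ad-PDK4 libraries were high, and Ad-Con replicate 3 was the lowest of the 6. Its log2 fold change was 1.28 ± 0.09 (SE, limma adjusted p = 2.17e-05), or 2.43-fold with a 95% interval of 2.11 to 2.79.

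B2m, the light chain shared by all class I molecules, was 1045, 1104 and 1035 FPKM in Ad-Con and 4182, 3697 and 4387 FPKM in Ad-PDK4. The groups were far apart, and Ad-PDK4 replicate 2 was the lowest of its group. B2m rose 3.84-fold, or 1.94 ± 0.07 on the log2 scale (limma adjusted p = 6.44e-07), with a 95% interval of 3.44 to 4.30-fold. Its level ranked 21st or 22nd among all genes in the Ad-Con libraries and 3rd in every Ad-PDK4 library. B2m made up 60.2 to 62.3% of the summed FPKM of the 10 genes in Ad-Con and 81.4 to 83.2% in Ad-PDK4. The 10 genes together held 0.547 to 0.561% of all FPKM in Ad-Con and 1.49 to 1.73% in Ad-PDK4.

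The 3 folding factors of the loading complex that also serve other glycoproteins changed little. Calr, a lectin chaperone of the endoplasmic reticulum, was 170.8, 171.9 and 171.5 FPKM in Ad-Con and 198.9, 195.0 and 207.0 FPKM in Ad-PDK4. Every Ad-PDK4 library was higher, but the log2 fold change was 0.22 ± 0.04 (SE, limma adjusted p = 0.00434), or 1.17-fold. The Ad-Con libraries lay closer together (CV 0.331%) than the counting error of each, which was 0.999 to 1.07%.
Canx, the membrane-bound lectin chaperone that holds the free heavy chain, was 135.2, 137.3 and 139.3 FPKM in Ad-Con and 127.1, 125.3 and 141.3 FPKM in Ad-PDK4. The groups overlapped, since Ad-PDK4 replicate 3 was the highest of the 6 libraries and the other two the lowest. Pdia3, the thiol oxidoreductase bound to tapasin, was 208.8, 204.7 and 216.1 FPKM in Ad-Con and 220.4, 206.6 and 233.5 FPKM in Ad-PDK4, again with overlap. The log2 fold change was -0.07 for Canx (limma adjusted p = 0.378) and 0.07 for Pdia3 (limma adjusted p = 0.371). The 95% interval ran from 0.872 to 1.05-fold for Canx and from 0.958 to 1.15-fold for Pdia3, so changes beyond these bounds were not seen at 10289 to 16193 reads per library.

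The order of levels also shifted. In Ad-Con the order was B2m, Pdia3, Calr, Canx, Tapbp, Tap2, Tap1, Tapbpl, Erap1 and Nlrc5, and no neighbours in it overlapped between libraries. In Ad-PDK4 Tapbp stood between Pdia3 and Calr, Tap1 stood above Tap2, and Erap1 stood above Tapbpl. There Pdia3 and Tapbp overlapped, as did Tapbp and Calr, and Tap1 and Tap2, so those neighbours were not separated by their spread. The CV within a group was larger in Ad-PDK4 for 8 of the 10 genes, Erap1 and Nlrc5 being the exceptions. This share was not counted over all tested genes, so it cannot be called particular to these genes.

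Ratios of partner genes were taken within each library, where a scaling factor common to a library's genes cancels. Tap1 over Tap2 was 0.865, 0.880 and 0.862 in Ad-Con and 0.965, 1.03 and 1.05 in Ad-PDK4, without overlap. Tapbp over Tapbpl was 16.97, 15.5 and 14.6 in Ad-Con and 16.03, 17.4 and 14.7 in Ad-PDK4, with full overlap. Calr over Canx was 1.26, 1.25 and 1.23 in Ad-Con and 1.56, 1.56 and 1.46 in Ad-PDK4, without overlap.
B2m over the summed FPKM of 16 class I heavy chain genes was 3.33, 3.27 and 3.38 in Ad-Con and 1.51, 1.27 and 1.57 in Ad-PDK4. By these FPKM, B2m exceeded the summed heavy chains in every library, by a smaller factor in all Ad-PDK4 libraries. Sequence shared among the heavy chain genes was not measured, so its effect on their sum is unknown. Exact permutation of the 6 libraries (two-sided, 20 ways to form the groups) gave p = 0.1, the smallest value possible with 3 libraries a group, for Tap1 over Tap2, Calr over Canx and B2m over heavy chains, and exact p = 0.7 for Tapbp over Tapbpl. After Benjamini-Hochberg adjustment over the 4 ratios these exact values were 0.133 and 0.7, and no ratio could have passed 0.05. The log2 ratio differed by 0.23 for Tap1 over Tap2, 0.29 for Calr over Canx, -1.21 for B2m over heavy chains and 0.03 for Tapbp over Tapbpl.

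**Figure D2:**
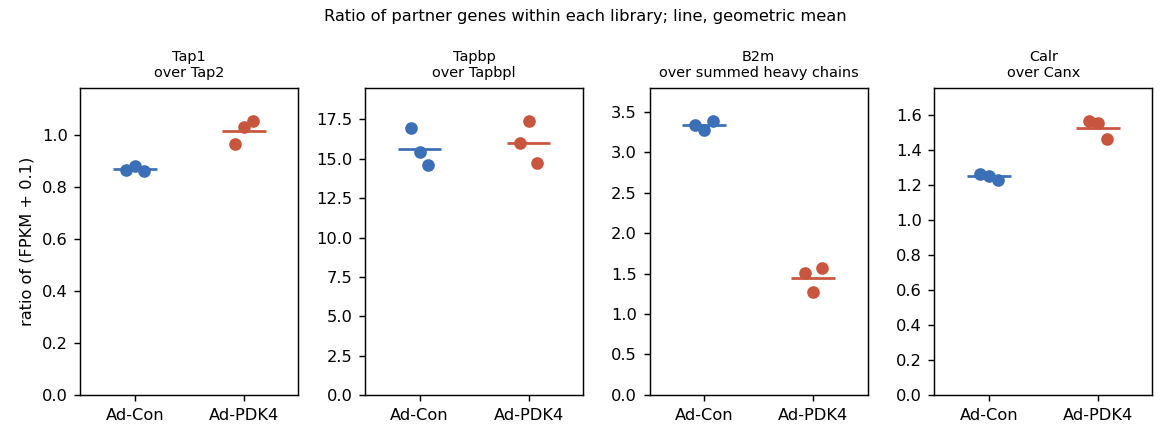
Ratio of partner genes within each library, from FPKM + 0.1, for 3 Ad-Con and 3 Ad-PDK4 libraries (points) with the geometric mean (line) and each axis starting at 0. B2m over heavy chains drops from 3.33 to 1.44, Tap1 over Tap2 moves from 0.869 to 1.02, and Tapbp over Tapbpl overlaps between the groups.

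The steps before and after loading were read from lists of genes. The counts of each list stand beside 21.8% higher and 20.8% lower over all tested genes. Of the 16 heavy chain genes, which encode the membrane-spanning class I chain that binds the peptide, 10 were tested and each of these rose, with a median log2 fold change of 2.58. Of these, H2-Q6 and H2-Q7 passed the filter only through Ad-PDK4, and without them 8 of 8 rose with a median of 1.88. The smallest rises were in H2-M3, which presents formylated peptides (0.86 ± 0.09, SE), and H2-T24 (1.25 ± 0.15). The largest were in H2-Q6 and H2-Q7, with 0 to 4 and 0 to 9 reads in the Ad-Con libraries against 2794 to 3544 and 1175 to 1507 reads in Ad-PDK4, and since H2-Q genes are close copies of each other the division of reads among them is uncertain. The classical chains, chosen after their values were seen, rose by 3.96 ± 0.06 for H2-K1 and 3.27 ± 0.06 for H2-D1 on the log2 scale.
All 5 genes of the immunoproteasome and its PA28 cap, which favour peptides that suit class I, rose, with a median of 1.95. The catalytic subunits Psmb8 (4.52 ± 0.11, SE) and Psmb9 (2.71 ± 0.12) rose most, and the cap subunits Psme1 (1.05 ± 0.04) and Psme2 (0.84 ± 0.13) least. Of 14 genes of the constitutive 20S core, 2 rose (Psma4 and Psma2, both 0.26), 2 fell (Psmb1 and Psmb4, both -0.18) and the median was -0.01. Of 8 cytosolic and other peptidases that trim or destroy peptides, 0 rose and 3 fell, namely Thop1 (-0.39), Blmh (-0.26) and Npepps (-0.23), while Erap1 in the endoplasmic reticulum rose.

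Of 17 other folding factors of the endoplasmic reticulum, 8 rose and 2 fell, with a median of 0.26. Over all tested genes the shares were 21.8% and 20.8%. The largest rises were in Hspa5 (BiP, 0.80 ± 0.05, SE) and Hyou1 (0.60 ± 0.06), and the smallest in Pdia4 (0.29 ± 0.05) and Pdia6 (0.20 ± 0.04). The genes that fell were P4hb, a subunit of prolyl hydroxylase (-0.54 ± 0.05), and Erp29 (-0.21 ± 0.06). Calr, at 0.22, lay within the range of these factors, and none of the 17 rose 2-fold.
Of 13 regulators of class I transcription, 12 were tested, 6 rose and 1 fell. The interferon signal protein Stat2 rose most (2.62 ± 0.06, SE) and Irf2 (0.42 ± 0.09) and Creb1 (0.40 ± 0.09) least, while Nfya, a subunit of the CCAAT-binding factor, fell (-0.43 ± 0.06). The RFX subunits Rfx5 (0.05), Rfxap (-0.03) and Rfxank (-0.26) did not pass the test, whereas Nlrc5, which acts through them, rose. Ciita, the related transactivator of class II genes, had 0 to 12 reads in Ad-Con and 0 to 2 in Ad-PDK4 and was not tested. Of 9 class II genes, 3 were tested. Cd74 had 1 to 4 reads in Ad-Con and 42 to 62 in Ad-PDK4 and passed the filter only through Ad-PDK4, H2-DMb1 and H2-DMa did not pass the test, and H2-Aa and H2-Ab1 had at most 1 and 3 reads in any library.

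**Figure D3:**
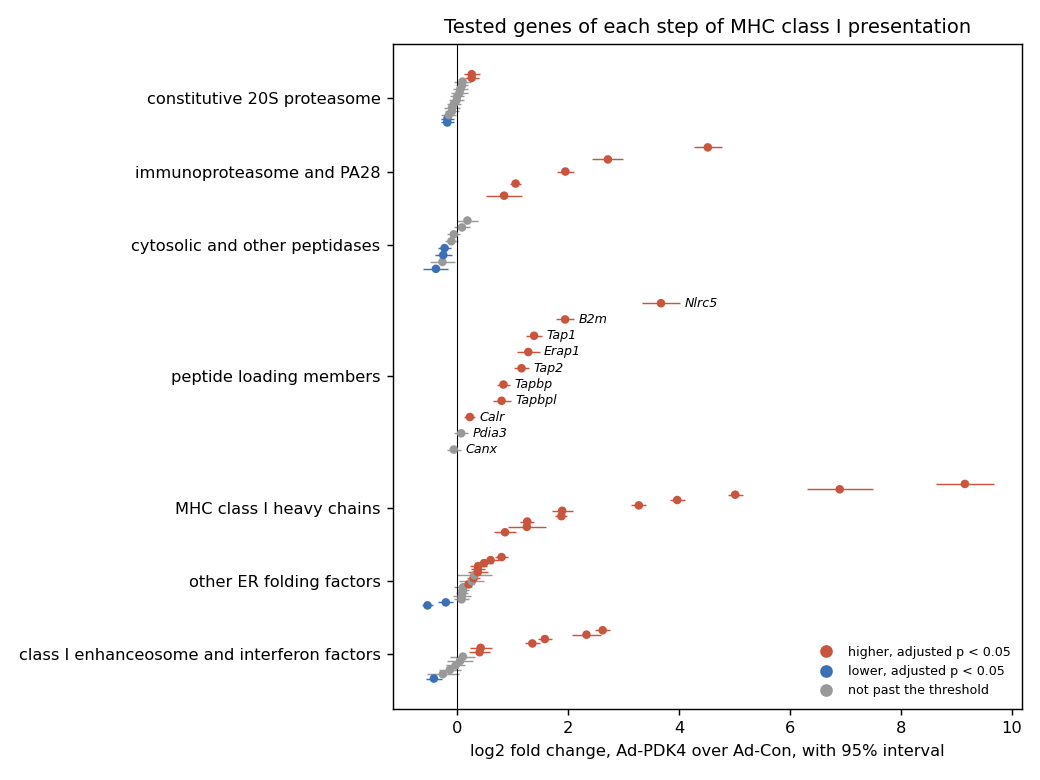
Log2 fold change (Ad-PDK4 over Ad-Con, horizontal axis) with its 95% interval for every tested gene of each step, colour giving the limma call. The peptide loading genes span -0.07 for Canx to 3.67 for Nlrc5. They overlap both the constitutive proteasome (-0.18 to 0.26) and the heavy chains (0.86 to 9.16). The 2 highest heavy chain points rest on fewer than 10 reads in each Ad-Con library.

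Of the tested genes that neighbour or overlap a member, some rose beside Tap1, Tap2, Tapbp, Calr and Canx. None rose beside B2m, Nlrc5, Tapbpl, Erap1 and Pdia3. Over all tested genes, 21.8% were higher and 20.8% lower by the same rule, so a single called neighbour is no result about its locus. Tap1 (ENSMUSG00000037321, chr17:34187553-34197225, plus strand, GRCm38) starts 226 bases from the start of Psmb9 by RefSeq, on the opposite strand, and their promoter windows share 275 bases. Psmb8 begins 495 bases after Tap1 ends and ends 2072 bases before Tap2 (ENSMUSG00000024339, chr17:34203527-34216321), so that a run of 4 genes of antigen processing rose, by 2.71, 1.38, 4.52 and 1.16 on the log2 scale in their order along the chromosome. The nearest tested gene to the left of the block, H2-DMb1, was at 0.16 (limma adjusted p = 0.21), and H2-Ob to the right had 0 reads.
Tapbp (ENSMUSG00000024308, chr17:33915899-33929288) lies 309 bases from Daxx, a histone chaperone that also rose (0.96, limma adjusted p = 3.56e-05), while Zbtb22, which overlaps it (-0.11), and Rgl2, 254 bases on the other side (-0.18), did not pass. Beside B2m (ENSMUSG00000060802, chr2:122147686-122153083), Spg11 fell (-0.25, limma adjusted p = 0.00649). Beside Nlrc5 (ENSMUSG00000074151, chr8:94434356-94527272), Cpne2 fell (-0.23, limma adjusted p = 0.0335) and Herpud1 was at -0.15 (limma adjusted p = 0.0529). The long noncoding RNA 9330175E14Rik starts within Nlrc5 on the opposite strand and had 1, 0 and 6 reads in Ad-Con against 73, 53 and 70 in Ad-PDK4, all Ad-PDK4 libraries being high.
Beside Canx (ENSMUSG00000020368, chr11:50293961-50325673, minus strand), Maml1 rose (0.50, limma adjusted p = 0.00136), whereas Canx itself did not pass. Calr (ENSMUSG00000003814, chr8:84841850-84846934, minus strand) lies 10054 bases from Farsa, which also rose (0.36, limma adjusted p = 0.0197). The other genes were Tapbpl (ENSMUSG00000038213, chr6:125223933-125231860, minus strand), Erap1 (ENSMUSG00000021583, chr13:74639568-74693201) and Pdia3 (ENSMUSG00000027248, chr2:121413775-121438687), and no tested neighbour of theirs passed the test.

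**Figure D4:**
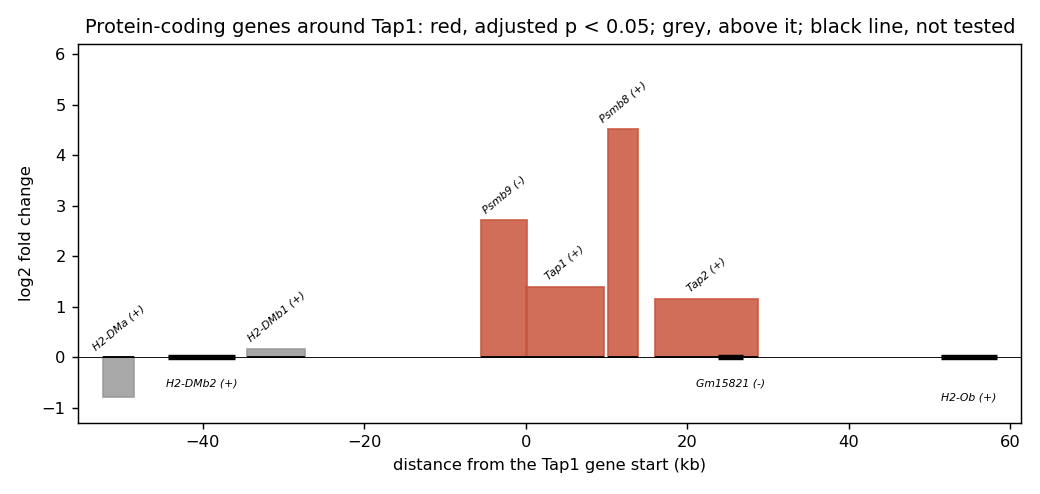
Protein-coding genes around Tap1 by distance from the Tap1 gene start (kb), with bar height giving the log2 fold change, red for adjusted p below 0.05, grey for above it and a black line for genes not tested. Psmb9, Tap1, Psmb8 and Tap2 stand next to each other with values of 2.71, 1.38, 4.52 and 1.16, and H2-DMb1 is at 0.16.

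Reads from bases shared with overlapping genes could be added to or lost from these values, depending on how such reads were counted. For genes on opposite strands this depends on whether counting used strand, which is not stated. Zbtb22 lies on the same strand as Tapbp, covered 4.11% of its exonic bases and had 718 to 904 reads in a library. Psmb9 covered 3.87% of the exonic bases of Tap1, Cast (0.17, limma adjusted p = 0.0753) covered 11.5% of those of Erap1, and Gm15821, with 1 to 8 reads in a library, covered 14.1% of those of Tap2. The lncRNA above covered 0.918% of the exonic bases of Nlrc5. Of stretches of 100 bases in the longest transcript, 8 of the 10 genes shared 0% with any other gene, Tapbp shared 0.107% and Tapbpl 0.0888%.

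Genes whose profile over the 6 libraries lay nearest to Tap1, by the Euclidean distance of log2 values centred on each gene, were Irf1 (distance 0.128), Plekha7 (0.128), Slc25a22 (0.134), Nectin2 (0.141) and Sbno2 (0.159). Nearest to B2m were Parp11 (0.165), Tll1 (0.165), Serping1 (0.171), Osmr (0.194) and Samhd1 (0.200). With 6 libraries in 2 groups, such a distance mostly reflects the size of the difference between groups, which was 1.35 for Irf1 and 2.01 for Parp11 on the log2 scale.

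Since leukocytes carry much of this machinery, their markers were read in the same libraries. Of 9 macrophage and leukocyte markers, 6 had at most 3 reads in every library, and Ptprc (CD45), Itgam, Tyrobp and C1qa had 0 in all 6. The summed level of the 9 was 14.97 to 17.9 FPKM in Ad-Con and 5.92 to 7.44 in Ad-PDK4, most of it Cd68. Csf1r and Lyz2 did not share that fall. Csf1r had 11, 23 and 35 reads in Ad-Con and 56, 62 and 61 in Ad-PDK4. Lyz2 was 1.30 to 1.68 FPKM in Ad-Con and 1.74 to 2.24 in Ad-PDK4 (log2 fold change 0.36, limma adjusted p = 0.0791). Of 7 lymphocyte and dendritic cell markers, 6 had 0 reads in all libraries and Cd79a had 1 to 7. Of 7 endothelial markers, Emcn and Tie1 were at 0 in all libraries. The sum of the 7 was 0.617 to 0.798 FPKM in Ad-Con and 0.885 to 1.18 in Ad-PDK4, most of it Kdr. Kdr had 71 to 121 reads in Ad-Con and 141 to 174 in Ad-PDK4 (log2 fold change 0.68, limma adjusted p = 0.0645). The fibroblast sum and Acta2, given above, were lower in Ad-PDK4, and their part in the rise of the loading genes was not tested.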

How the data were processed

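RNA-seq libraries of 3 Ad-Con and 3 Ad-PDK4 samples were analysed, grouped by their treatment labels. The authors deposited 1 FPKM per gene and library, with gene length and coordinates. The submitters' processing notes name CASAVA 1.8, fastp, HISAT2 2.0.5, featureCounts 1.5.0-p3 and DESeq2 1.20.0. Those notes name GRCm39, but 98.3% of the gene identifiers matched had their GENCODE M21 (GRCm38) coordinates, so coordinates are given on GRCm38. FPKM times length gave whole reads for 100% of values within 0.01 reads. Since FPKM is not a count, log2(FPKM + 0.1) was tested with limma 3.58.1 (R 4.3.3; empirical Bayes with trend and robust, no covariate) over genes averaging 0.5 FPKM or more, with Benjamini-Hochberg adjustment over all of them, and the fit was tested on simulated data. Calls required an adjusted p below 0.05. Single-value ratios used the exact permutation test. The members and lists were chosen with earlier results of these data known. The genes named were all 10 members, Pdk4, the 2 largest and 2 smallest called changes of each list, genes neighbouring or overlapping a member, and the 5 profiles nearest to Tap1 and to B2m. Alternatives were pseudocounts of 0.01 and 1, no filter, a mean FPKM of at least 5, TPM and quantile scaling, moderation without trend, limma-voom on recovered reads, a replicate block, and each library left out. Same-numbered samples did not deviate together (correlations of -0.05, -0.03 and -0.001), so no pairing by number was seen. These values cannot tell whether same-numbered cultures shared an isolation or a batch. The study calls the samples biological replicates. The methods and the labels name different library kits, and use of strand is not given in the sources used here. Promoter windows for Tap2, Tapbpl and Nlrc5 were not analysed here. Values of 2 genes that the rule for named genes covers are not reported here.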

Additional observations from a re-analysis of the deposited data

How the results depend on the processing

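The call of each of the 10 genes and the direction of its change were kept under every alternative that gave a value. The log2 fold change ranged from 2.12 (pseudocount 1) to 4.11 for Nlrc5, which left the test at a mean FPKM of at least 5, so that 7 members were called there. It ranged from 1.89 to 2.09 for B2m, 1.31 to 1.43 for Tap1, 1.09 to 1.203 for Tap2, 1.17 to 1.33 for Erap1, 0.80 to 0.92 for Tapbp, 0.73 to 0.84 for Tapbpl and 0.20 to 0.27 for Calr, with limma adjusted p of at most 0.0218. Canx stayed between -0.12 and -0.03 and Pdia3 between 0.02 and 0.13, both not past the threshold. Of 245 alternative values, 244 kept their direction and side of the threshold or stayed near the reported one. The log2 ratio of Tapbp over Tapbpl was 0.18 under quantile normalization against 0.03, and the cause was not tested. The number of genes higher was 2928, and it was 2314 to 2682 with 1 library left out, 3221 with limma-voom on recovered reads and 2162 to 3416 over all alternatives, and the number lower was 2798 and 1881 to 3138. These counts come from unlike numbers of tested genes and are not shares. The main fit tested 13423 genes, against 7731 at a mean FPKM of at least 5, 16323 with TPM and 25202 with no filter. With the replicate number as a block, 2759 genes were higher and 2626 lower, and 8 members were higher and 0 lower. The median over all tested genes was 0.04 on the log2 scale with TPM and -0.04 with quantile normalization. The 3 libraries a group limit the exact tests to p = 0.1.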
